A study of Mus musculus with 9 samples.

Results

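The subject is a set of 37 imprinted mouse genes, 4 of them in the Dlk1 locus on chromosome 12 (Dlk1, Meg3, Rian and Mirg) and 33 in other imprinted clusters, measured by RNA-seq in pancreatic islets with and without Ogt in beta cells. The genes were picked by symbol from a list put together with earlier results of these data known, and 37 of 37 symbols were found among the 24393 gene symbols analysed. Of these, 31 passed the filter on low counts and 6 did not (H19, Phlda2, Snrpn, Magel2, Mkrn3 and Calcr). Because the list was drawn up with the KO against WT results in view, differences between KO and WT are given for its genes as descriptions, with no p-value.

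The 4 knockout (KO) libraries came from islets of female mice with the genotype Rip-cre; Ogt f/f, in which Cre recombinase is driven by an insulin promoter and removes Ogt, the gene of O-GlcNAc transferase. The 5 wild-type (WT) libraries came from female mice without Cre. WT replicates 1 and 3 were Ogt f/+ and WT replicates 2, 4 and 5 were Ogt f/f. Since no WT library carried Rip-cre, the transgene and the loss of Ogt cannot be told apart. Run 1 held KO replicates 1 and 2 and WT replicates 1 to 3. A later pool, labelled run 3 in one place and 2nd run in another and called run 3 here, held KO replicates 3 and 4 and WT replicates 4 and 5. Whether each library is a different mouse is not stated in the labels, and the spread behind the p-values is therefore one between libraries and may be technical. The labels used here give no age.

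An imprinted gene is transcribed mainly from the chromosome of 1 parent, under the control of a region whose DNA methylation is set in the egg or the sperm and kept through development. Imprinted genes lie in clusters, and many of them act on growth, metabolism and placental function. In the Dlk1 locus the paternal chromosome expresses Dlk1, a membrane and secreted protein with EGF-like repeats that is related to Notch ligands. The maternal chromosome expresses the long non-coding RNAs Meg3, Rian and Mirg from the same strand, and these carry many small nucleolar RNAs and microRNAs. In human islets this maternal transcript group is known as a beta cell product that has been described as lower in type 2 diabetes. Counts of gene-level RNA do not tell the parental alleles apart.

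Dlk1 lies on the plus strand at chr12:109452823-109463336 and Meg3, also on the plus strand, at chr12:109541001-109571726 (GRCm38, GENCODE). The 250 bases before a RefSeq transcription start of each are shown because these neighbouring genes of one domain differed in how they moved, as described next. CpG sites, the places where mammalian DNA is methylated, are in capitals.
Dlk1 promoter, chr12:109452573-109452822, plus strand, RefSeq GRCm38.p6: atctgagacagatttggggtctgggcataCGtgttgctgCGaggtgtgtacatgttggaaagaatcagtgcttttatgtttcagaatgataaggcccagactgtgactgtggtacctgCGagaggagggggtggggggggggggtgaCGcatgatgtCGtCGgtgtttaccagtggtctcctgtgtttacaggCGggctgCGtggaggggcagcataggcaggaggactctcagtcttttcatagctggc
Meg3 promoter, chr12:109540746-109540995, plus strand, RefSeq GRCm38.p6: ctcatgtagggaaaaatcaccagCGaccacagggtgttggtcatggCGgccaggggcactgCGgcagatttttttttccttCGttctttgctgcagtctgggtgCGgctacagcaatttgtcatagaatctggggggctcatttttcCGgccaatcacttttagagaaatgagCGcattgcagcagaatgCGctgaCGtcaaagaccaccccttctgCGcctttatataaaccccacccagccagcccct
The Dlk1 window holds 8 CpG sites and is 54.8% G or C. The Meg3 window holds 10 CpG sites and is 52.4% G or C. The hexamer TGCCGC, which ZFP57 binds when it is methylated and so keeps imprints, was looked for in these 250-base windows on both strands, with no other motif searched. It was in the Meg3 window shown and not in the Dlk1 window. The window of another Meg3 start, chr12:109545148-109545397, held 0 CpG sites and not the hexamer. The RefSeq span of Dlk1 starts at 109452485, before the Dlk1 window. Of the 32 members with a window in RefSeq, 5 held the hexamer (Meg3, Zim1, Plagl1, Calcr and Mest), or 15.6%, against 9.84% of 27025 genes. A gene with several starts counted as holding it if any window did. The hexamer itself contains a CpG site, and the windows of members held more of these sites. Taking the richest window of each gene, the median was 12 CpG sites among members and 6 over all genes. Nothing is read from these shares.

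Ogt itself was checked first. Its level was 23.7, 24.1, 30.9 and 39.3 CPM (counts scaled to library sizes adjusted by the TMM method) in KO replicates 1 to 4, against 69.6, 54.1, 83, 67 and 81.8 CPM in WT replicates 1 to 5, a log2 fold change of −1.30 ± 0.14 (SE, adjusted p = 2.44e-05, edgeR's quasi-likelihood test). Beta cell markers identified the tissue, with a summed level of 42800 to 83100 CPM in KO and 47900 to 110000 CPM in WT. Libraries held 3790984 to 6064578 counts, and those of run 3 were the deeper ones. Rn45s, the precursor of ribosomal RNA, accounted for 9.64% to 28.6% of counts, with the highest share of each run in a WT library (WT replicate 2 in run 1 and WT replicate 5 in run 3). In bulk RNA, fewer cells of a type and less RNA per cell cannot be told apart.

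Dlk1 was far higher in KO islets. It stood at 138, 237, 167 and 153 CPM in KO replicates 1 to 4, against 12.2, 13.9, 8.45, 19.3 and 15.5 CPM in WT replicates 1 to 5. The lowest KO library was well above the highest WT library, and the gap was present in each run. The mean was 174 ± 44 CPM in KO (SD, n = 4) and 13.9 ± 4 CPM in WT (SD, n = 5). The model of run and genotype gave a log2 fold change of 3.61 ± 0.19 (SE), or 12.2-fold, which ranked 2 of 12501 genes tested. Within run 1 the log2 fold change was 4.04 and within run 3 it was 3.20. On the authors' FPKM scale, which divides by gene length, Dlk1 was at 29 to 50 FPKM in KO and 1.85 to 4.82 FPKM in WT. Dlk1 passed the threshold under 22 of 22 other ways of fitting the data, with log2 fold changes of 3.27 to 3.78.

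Some markers of islet cell types were called as well, beside 18.5% of all tested genes called (9.56% higher and 8.96% lower). Of 7 delta and PP cell markers 3 were higher in KO and 0 were lower, and their summed level was 3980 to 5580 CPM in KO and 3070 to 4070 CPM in WT. These 3 were Rbp4, Pyy and Etv1, and each of the 7 markers had counts in the 9 libraries. Of 10 beta cell markers 0 were higher and 5 were lower. Of 8 tested fibroblast and stellate cell markers 1 was higher, Pdgfrb, and the summed level of the 9 listed was 193 to 876 CPM in KO and 102 to 715 CPM in WT, higher in run 3 than in run 1. Lum, a fibroblast marker that did not pass the filter, was at 0 in KO replicate 2 and WT replicate 3. The part of these cell types in the Dlk1 result was not tested.

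**Figure D1:**
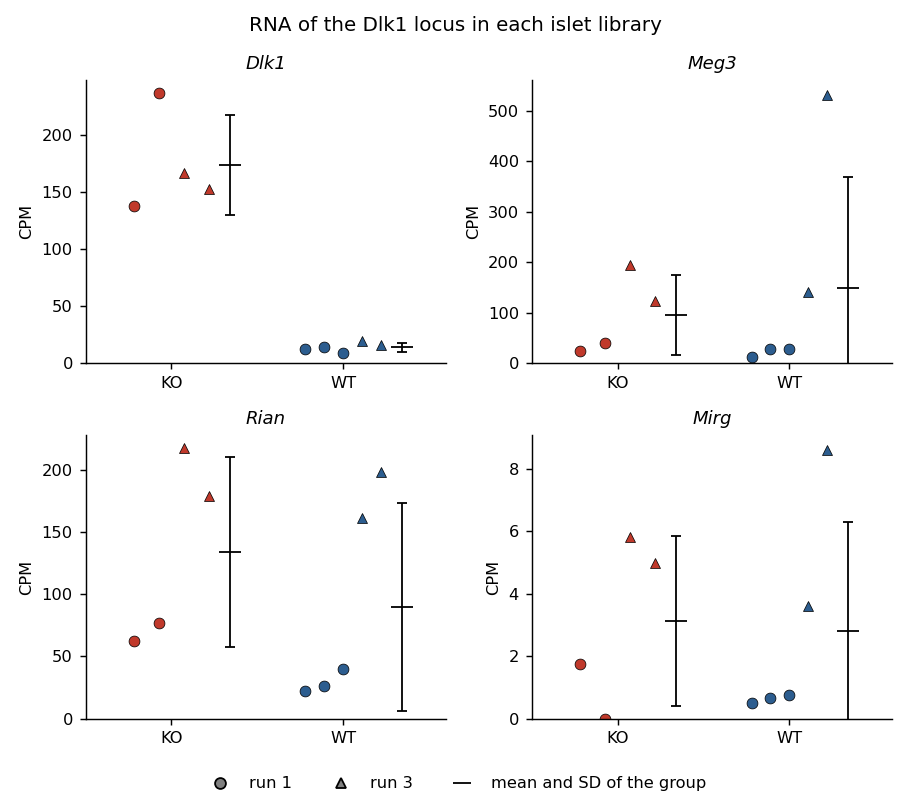
Level of the 4 RNAs of the Dlk1 locus (CPM) in each KO library and each WT library, with circles for run 1 and triangles for run 3, and the group mean with its SD drawn only above 0. Dlk1 separates KO (138 to 237 CPM) from WT (8.45 to 19.3 CPM), whereas Meg3, Rian and Mirg separate run 3 from run 1.

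The maternally expressed RNAs of the locus did not move as Dlk1 did. Meg3, a long non-coding RNA, was measured at 24.4, 38.9, 195 and 123 CPM in KO replicates 1 to 4, against 12.2, 27.5, 28.3, 142 and 532 CPM in WT replicates 1 to 5. The groups overlapped widely, and the 4 libraries of run 3 were above the 5 of run 1. The log2 fold change of KO over WT was −0.42 ± 0.38 (SE) and was not called. It was 0.50 within run 1 and −1.08 within run 3. WT replicate 5 decided the sign: without it the value was 0.33 over both runs and 0.16 within run 3. Without WT replicate 4 it was −1.74 within run 3 and passed the threshold.

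Rian, the host RNA of a tandem array of C/D box small nucleolar RNAs (chr12:109603940-109661716), had 62.2, 76.9, 217 and 179 CPM in KO replicates 1 to 4. WT replicates 1 to 5 had 22.5, 25.9, 39.5, 161 and 198 CPM. In run 1 both KO libraries were above the 3 WT libraries, and in run 3 the groups overlapped. Its log2 fold change was 0.66 ± 0.19 (SE) over both runs, 1.24 within run 1 and 0.14 within run 3. It was called over both runs and within run 1, but over both runs in only 10 of 22 alternatives (0.41 to 0.84). The call over both runs was lost without WT replicate 1 (0.53), WT replicate 2 (0.57), KO replicate 1 (0.61) or KO replicate 2 (0.47). It was also lost in DESeq2 (0.73), limma-voom (0.48), on log2 FPKM and without the run term (0.57). The same held with f/f controls alone (0.50) and with acinar markers as a covariate (0.41). The small nucleolar RNAs AF357425 (−0.09 ± 0.43) and AF357359 (0.06 ± 0.25), within the span of Rian, passed the filter and were not called. Within run 1 the call of Rian held in 6 of 6 alternatives.

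Mirg, the host RNA of a microRNA cluster (chr12:109729764-109749460), was near the detection limit in run 1. It had 1.76, 0, 5.81 and 4.99 CPM in KO replicates 1 to 4, against 0.489, 0.648, 0.746, 3.61 and 8.62 CPM in WT replicates 1 to 5. The groups overlapped in both runs. Its log2 fold change was −0.02 ± 0.50 (SE).

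The rule for the list did not use the difference between runs, which was tested in the same model. Meg3 was higher in run 3 by 3.19 ± 0.38 (log2, SE, adjusted p = 1.1e-05, edgeR's quasi-likelihood test), Rian by 2.08 ± 0.19 (adjusted p = 7.02e-07) and Mirg by 2.94 ± 0.52 (adjusted p = 4.52e-04). Dlk1 differed between runs by 0.08 ± 0.19 and was not called. Over all tested genes 31.4% were called between runs. Among the members 5 were higher in run 3, 6 were lower and 20 were not called. The other 2 that were higher were Zim1 (1.04 ± 0.17, adjusted p = 2.55e-04) and Usp29 (0.38 ± 0.13, adjusted p = 0.0307), which are neighbours of Peg3. Igf2r (−0.64 ± 0.09, adjusted p = 4.1e-05), Rasgrf1 (−0.50 ± 0.09, adjusted p = 6.61e-04), H13 (−0.40 ± 0.09, adjusted p = 0.00232), Gnas (−0.33 ± 0.10, adjusted p = 0.0231), Grb10 (−0.23 ± 0.08, adjusted p = 0.0327) and Ube3a (−0.20 ± 0.07, adjusted p = 0.047) were lower in run 3, by edgeR's quasi-likelihood test. The runs differed in other ways too. Acinar cell markers summed to 408 to 5540 CPM in run 1 and 90.4 to 219 CPM in run 3. Genes with counts numbered 14485 to 15136 per library in run 1 and 20069 to 21067 in run 3. The run is a pool of libraries, and the part of such differences in these values was not tested.

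**Figure D2:**
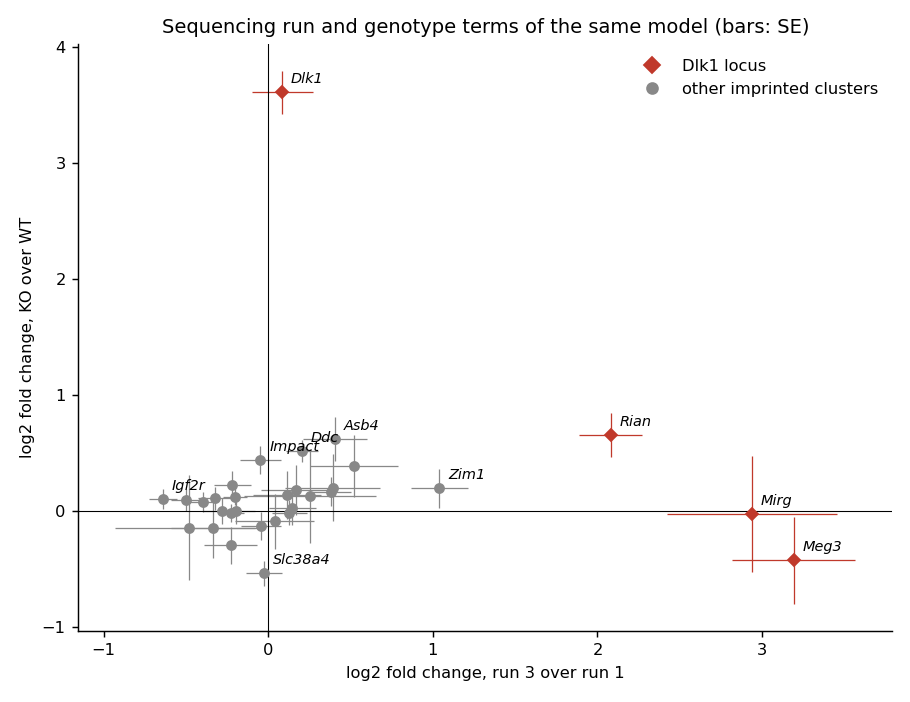
Each of the 31 tested imprinted genes by its log2 fold change of run 3 over run 1 (horizontal axis) and of KO over WT (vertical axis), with SE bars; diamonds are the Dlk1 locus and circles the other clusters. Dlk1 lies at 0.08 on the run axis and 3.61 on the genotype axis, and Meg3, Mirg and Rian lie at 2.08 to 3.19 on the run axis.

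Whether the genotype difference itself changed between runs was tested as an interaction. No gene was called (0 of 12501, with 744 at an unadjusted p under 0.05, or 5.95%, edgeR's quasi-likelihood test), and no other tool was run on it. For the members, whose KO against WT values were known when the list was drawn up, the interaction is given as a description. KO over WT in run 3 minus the same in run 1 was −1.10 ± 0.27 (log2, SE) for Rian, −1.58 ± 0.67 for Meg3 and −0.84 ± 0.33 for Dlk1. Without WT replicate 3 the Rian value was −1.39 and passed the threshold. Without WT replicate 1 (−0.93) or WT replicate 2 (−1.025) it did not.

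WT replicate 5, which held the highest Meg3 level, was also highest in other RNAs that stay in the nucleus. These RNAs were chosen after their values were seen. Malat1 was at 4090 and 2610 CPM in KO replicates 3 and 4, against 2790 and 10900 CPM in WT replicates 4 and 5. Neat1 was at 74.1 and 62.1 CPM in KO replicates 3 and 4, against 57.4 and 235 CPM in WT replicates 4 and 5. The same library was highest of run 3 in the members Zim1 (114 and 112 CPM in KO, 84.5 and 168 CPM in WT) and Kcnq1ot1 (75.4 and 50.9 CPM in KO, 55.4 and 119 CPM in WT). Without it Zim1 was called higher in KO, at a log2 fold change of 0.49 against 0.20 with it. In run 1 Neat1 was 8.28 and 11.6 CPM in KO and 12.9 to 21 CPM in WT, below each library of run 3. The part of this library's makeup in the Meg3 values was not tested.

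**Figure D3:**
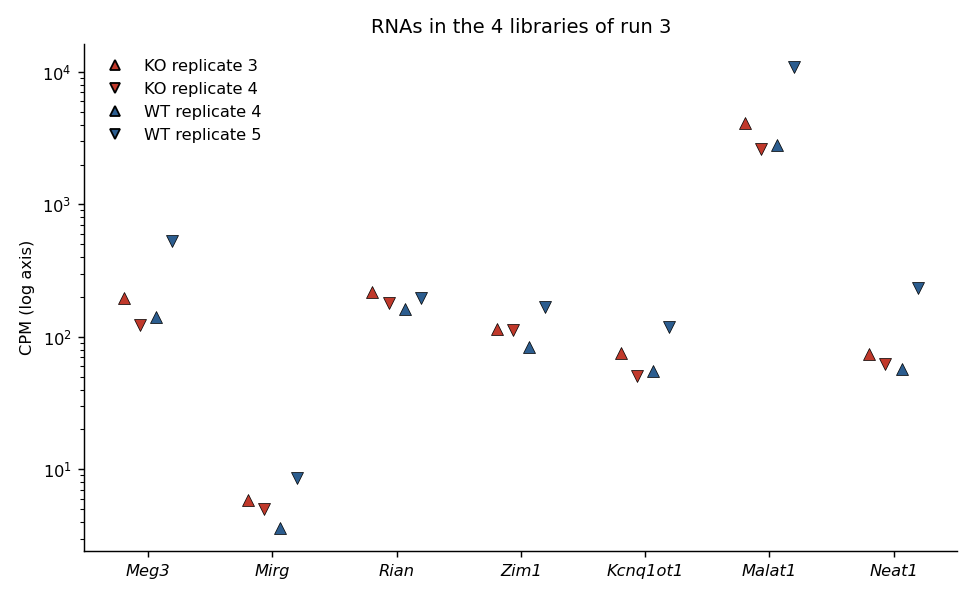
Level (CPM, log axis) of 5 imprinted RNAs and of Malat1 and Neat1 in the 4 libraries of run 3, KO libraries to the left of WT libraries. WT replicate 5 holds the highest level of each RNA except Rian, for which KO replicate 3 is highest at 217 CPM.

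Between Begain and Ppp2r5c (chr12:109032181-110583075) RefSeq lists 111 genes, of which 79 were counted and 8 passed the filter. Rtl1, a paternally expressed gene derived from a retrotransposon, had 2.77, 3.16, 8.97 and 5.28 CPM in KO replicates 1 to 4, against 0.733, 0, 1.24, 2.41 and 6.76 CPM in WT replicates 1 to 5. Its log2 fold change of 1.11 ± 0.46 (SE) was not called. Its RefSeq span overlaps those of Meg3 and Rian, so its reads may not all be its own. Dio3, the thyroid hormone deiodinase at the far end of the domain, had 12 counts in all, and Begain had 30. Of the 9 tested genes on a list of neighbours in and around the domain, 1 was called, beside 18.5% of all tested genes. That gene was Wars, the cytosolic tryptophanyl-tRNA synthetase, which was lower in KO. Wars averaged 65.6 CPM over the 4 KO libraries, with an SD of 14, and 103 CPM over the 5 WT libraries, with an SD of 27.4. KO differed from WT by −0.56 on the log2 scale, with an SE of 0.10.

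The microRNA genes of the domain were barely counted in these total RNA libraries, which are not made to capture mature microRNAs. Of the 61 microRNA genes listed, 42 had at least 1 count. Their summed counts were 9, 8, 79 and 63 in KO replicates 1 to 4, against 5, 2, 6, 39 and 92 in WT replicates 1 to 5. They were thus high in run 3 and low in run 1, as Meg3, Rian and Mirg were, and the KO and WT groups overlapped. RefSeq holds 114 mature sequences from 58 hairpins there, with 104 distinct seeds (bases 2 to 8), and no seed was carried by more than 2 of them. Both arms of miR-379 share a seed with another member of the domain. These 4 sequences are shown, with the seed in capitals, as examples of the microRNAs of the domain. They lie between the annotated spans of Rian and Mirg and inside neither.
mmu-miR-379-5p: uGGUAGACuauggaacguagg
mmu-miR-1193-5p: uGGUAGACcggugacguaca
mmu-miR-379-3p: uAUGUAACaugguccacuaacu
mmu-miR-411-3p: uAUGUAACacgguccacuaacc

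Among the tested members outside the Dlk1 locus the differences between KO and WT were between −0.53 and 0.62 on the log2 scale. Over both runs 5 members were called higher (Dlk1, Rian, Ddc, Asb4 and Impact), 1 was called lower (Slc38a4) and 25 were not called. Among the 12501 tested genes 18.5% were called, 9.56% higher and 8.96% lower. Within run 1, 4 members were called higher (Dlk1, Rian, Ddc and Impact) and 0 lower, beside 10.4% of all genes called, 5.49% higher and 4.86% lower. Leaving out single libraries of run 1 left 2 to 6 members called there, 2 of them without WT replicate 2 and 6 without KO replicate 2. Within run 3, 1 was called higher (Dlk1) and 1 lower (Slc38a4), beside 4.32% of all genes called, 2.19% higher and 2.13% lower. Leaving out single libraries of run 3 left 1 to 3 called, 3 of them without WT replicate 4 and Dlk1 alone without any other. On the authors' FPKM values, as log2(FPKM + 0.1) in limma, 2 members were called higher (Dlk1 and Ddc) and 1 lower (Slc38a4), beside 6.05% of 21073 genes, 2.94% higher and 3.11% lower. The list was chosen with this contrast in view, and nothing is read from these counts. The median log2 fold change of the 31 members was 0.11, against 0.02 over all tested genes, and 26 of the 31 were within 0.5 of 0, against 81.7% of all genes. Only Dlk1 had a change of more than 1 on the log2 scale over both runs, which 3.41% of all genes had.

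**Figure D4:**
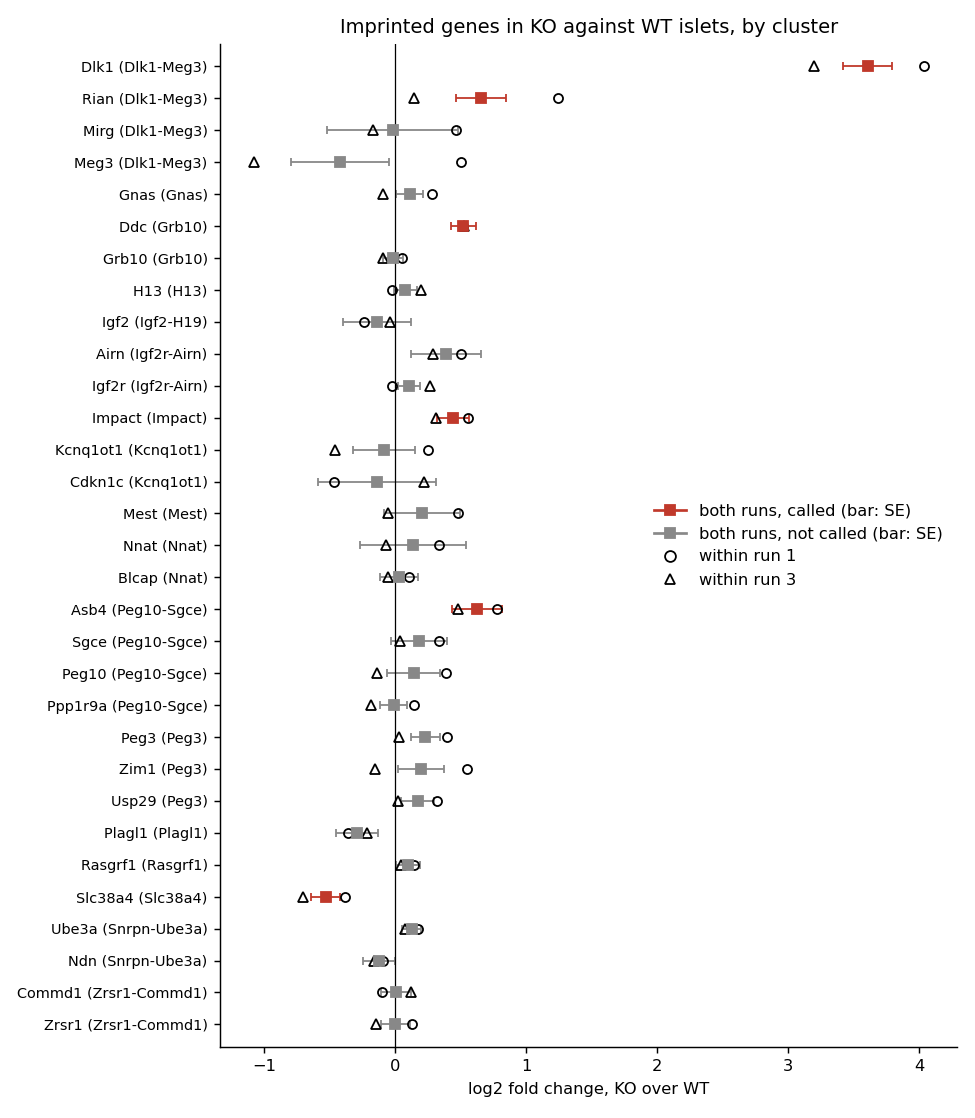
Log2 fold change of KO over WT for the 31 tested imprinted genes, grouped by cluster, over both runs (squares, with SE bars) and within run 1 (circles) and run 3 (triangles); red squares are called genes. Dlk1 stands at 3.61, and the genes outside its locus lie between −0.53 and 0.62.

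Ddc, next to Grb10 and expressed from 1 parental chromosome only in some tissues, encodes aromatic L-amino acid decarboxylase, which makes dopamine and serotonin. It had 173, 160, 171 and 215 CPM in KO replicates 1 to 4, against 101, 117, 132, 144 and 124 CPM in WT replicates 1 to 5. The groups did not overlap. Its log2 fold change was 0.52 ± 0.10 (SE), 0.51 within run 1 and 0.53 within run 3, and over both runs it passed the threshold in 22 of 22 alternatives. Within run 1 alone it was called in 1 of 6 alternatives (0.42 to 0.62), and the call was lost without WT replicate 1 (0.42), WT replicate 2 (0.52), KO replicate 1 (0.45) or KO replicate 2 (0.57). Grb10, an adaptor protein that dampens insulin and IGF receptor signalling, had 119 to 162 CPM in KO and 132 to 154 CPM in WT and was not called.

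Slc38a4, a paternally expressed transporter of neutral amino acids, was the member lower in KO. It had 181, 155, 134 and 159 CPM in KO replicates 1 to 4, against 224, 188, 246, 210 and 266 CPM in WT replicates 1 to 5. The highest KO library was below the lowest WT library. Its log2 fold change was −0.53 ± 0.11 (SE), −0.39 within run 1 and −0.70 within run 3, and it passed the threshold over both runs in 22 of 22 alternatives. Within run 3 the call was lost without WT replicate 5 (−0.53), KO replicate 3 (−0.58) or KO replicate 4 (−0.83).

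Asb4, maternally expressed and a substrate-binding part of a ubiquitin ligase, had 12.8, 19.5, 21.6 and 17.2 CPM in KO replicates 1 to 4, against 11.7, 7.12, 9.2, 12 and 15.7 CPM in WT replicates 1 to 5. KO was above WT within each run, while KO replicate 1 lay below WT replicate 5. The log2 fold change of 0.62 ± 0.19 was called in 11 of 22 alternatives (0.39 to 0.72), and the call was lost without WT replicate 2 (0.55), WT replicate 3 (0.60), WT replicate 4 (0.58), KO replicate 2 (0.46) or KO replicate 3 (0.58).

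Impact, a paternally expressed inhibitor of the stress kinase GCN2, had 137, 93.2, 104 and 99.5 CPM in KO replicates 1 to 4, against 96.7, 68.3, 68.6, 81.8 and 81.8 CPM in WT replicates 1 to 5. KO replicate 2 lay below WT replicate 1, and the other KO libraries lay above the WT libraries. Its log2 fold change of 0.44 ± 0.12 was called in 15 of 22 alternatives, and without KO replicate 1 it was 0.29 and not called. Within run 1 it was 0.56 and was called in 2 of 6 alternatives (0.25 to 0.81), and the call was lost without WT replicate 2 (0.48), WT replicate 3 (0.47) or KO replicate 1 (0.25).

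Non-overlap gave a similar picture. Over both runs 2 of 31 members had each KO library above each WT library (Dlk1 and Ddc) and 1 had each below (Slc38a4), or 9.68%, against 11.1% of all tested genes (5.97% above and 5.13% below). Within runs 4 members were higher (Dlk1, Ddc, Asb4 and Ube3a) and 1 was lower (Slc38a4), or 16.1%, against 22.9% of all tested genes (11.9% higher and 11% lower). These shares are near or below the background and are no result about the members.

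**Figure D5:**
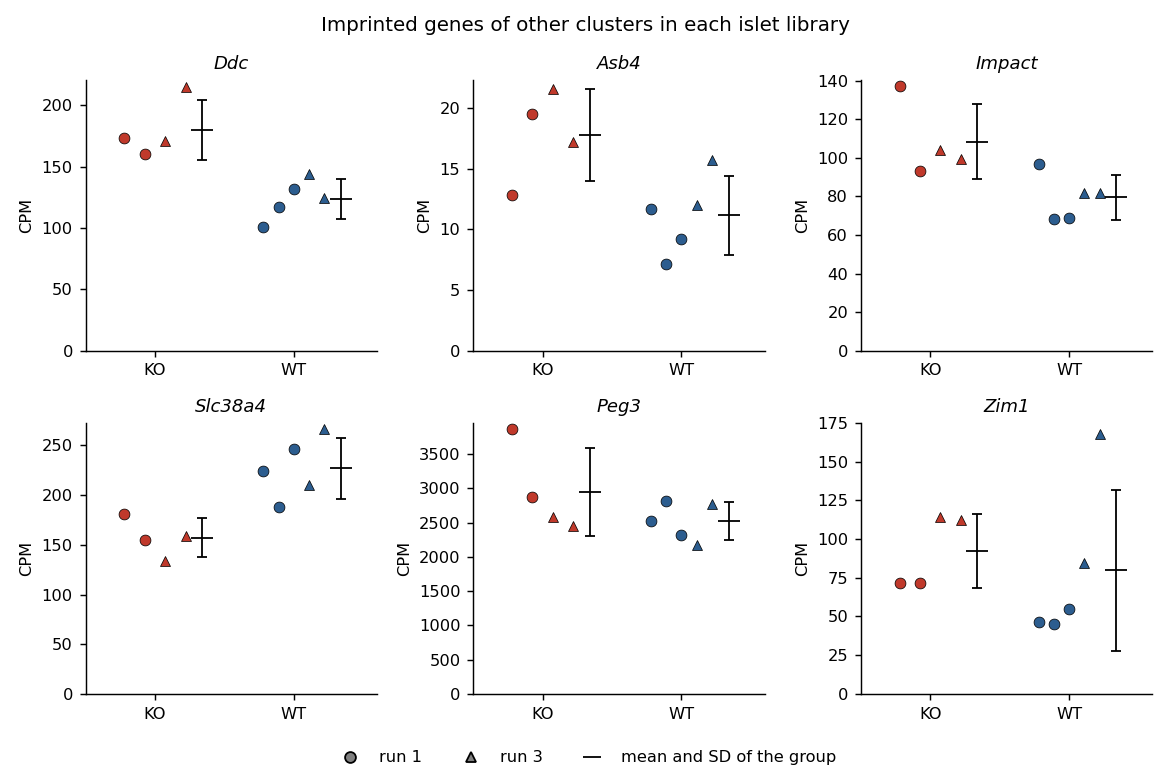
Level (CPM) of 6 imprinted genes outside the Dlk1 locus in each KO library and each WT library, with circles for run 1, triangles for run 3 and the group mean with its SD. Ddc and Slc38a4 separate KO from WT without overlap, whereas Zim1 is higher in run 3 than in run 1.

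The remaining tested members were not called over both runs. In the Peg3 cluster, the zinc finger gene Peg3 was one of the most abundant members, at 3870, 2870, 2580 and 2450 CPM in KO replicates 1 to 4, against 2530, 2820, 2320, 2170 and 2770 CPM in WT replicates 1 to 5. Its neighbours gave log2 fold changes of 0.17 ± 0.13 for Usp29, a ubiquitin-specific protease, and 0.20 ± 0.17 for Zim1, another zinc finger gene. The 3 genes were close to 0 within run 3 (−0.16 to 0.03) and between 0.32 and 0.55 within run 1.

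Members of the growth-related clusters were low or not called. Igf2, the paternally expressed growth factor, had 5.29 to 9.25 CPM in KO and 4.73 to 10.2 CPM in WT. Igf2r, the maternally expressed receptor that clears it, had 264 to 382 CPM in KO and 218 to 414 CPM in WT. Airn, the paternal non-coding RNA that overlaps Igf2r on the other strand, had a log2 fold change of 0.39 ± 0.27. H19 did not pass the filter, with 0, 6, 20 and 61 counts in KO replicates 1 to 4, against 0, 0, 0, 14 and 12 counts in WT replicates 1 to 5. A library with 0 counts allows up to 3 counts, which is 0.756 CPM in KO replicate 1 and 0.733 to 0.972 CPM in WT replicates 1 to 3. Such limits cover counting error only. Its mean was 3.43 ± 3.92 CPM in KO (SD, n = 4) and 0.827 ± 1.13 CPM in WT (SD, n = 5). It was called when no filter was applied and when KO replicate 1 was left out. Its counts were larger in run 3 than in run 1 in both groups.

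In the Kcnq1ot1 cluster, Cdkn1c, the inhibitor of cyclin-dependent kinases also called p57, had 1.76 to 2.92 CPM in KO and 0.676 to 4.53 CPM in WT. Kcnq1ot1, the paternal antisense RNA that silences the cluster, had a log2 fold change of −0.09 ± 0.24 and overlaps Kcnq1, and no source used here says whether reads were assigned by strand. Phlda2, a brake on placental growth, had 4 counts in KO replicate 4 and 0 in the other libraries.

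Neuronatin (Nnat), a small endoplasmic reticulum protein that aids insulin processing in beta cells, varied within both groups, with 4.28 to 25.8 CPM in KO and 5.18 to 22.4 CPM in WT, and its log2 fold change was 0.13 ± 0.41. Blcap, in whose intron it lies, had 0.03 ± 0.14. Gnas, the stimulatory G protein alpha subunit, was the most abundant member per length at a mean of 851 FPKM, rank 42 of 24320 genes, followed by Peg3 at 450 FPKM, rank 73. Gnas gave a log2 fold change of 0.11 ± 0.10, and its gene-level count joins transcripts that are imprinted in different ways.

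In the Snrpn-Ube3a cluster, Ndn (necdin, a growth suppressor) had 23.4 to 29.7 CPM in KO and 26 to 30.8 CPM in WT, and Ube3a, a ubiquitin ligase, 159 to 194 CPM in KO and 147 to 179 CPM in WT. Snrpn, a splicing protein gene, was nearly absent from the counts, with 0 to 3 counts in KO and 0 to 1 in WT, while the authors' FPKM table gave it 9.01 to 16.5 in KO and 8.53 to 20.4 in WT. Snrpn shares exons with Snurf, which was at 0 counts in each library and at 4.92 to 10.2 FPKM. No comparison of Snrpn was made from counts. Magel2 and Mkrn3 reached at most 1.16 and 1.99 CPM in KO and 0.753 and 0.972 CPM in WT.

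Peg10, a retrotransposon-derived gene, rested on 1 library in run 1. It had 184, 62.3, 108 and 110 CPM in KO replicates 1 to 4, against 95.3, 89.7, 96.2, 128 and 113 CPM in WT replicates 1 to 5. Within run 1 its log2 fold change of 0.39 was −0.59 without KO replicate 1 and 0.97 without KO replicate 2, and both of these passed the threshold. Sgce (0.18 ± 0.21) and Ppp1r9a (−0.01 ± 0.11), its neighbours, were not called, and Calcr, the calcitonin receptor, reached 2.66 CPM in KO and 1.01 CPM in WT. Plagl1, a zinc finger regulator of other imprinted genes, had a log2 fold change of −0.29 ± 0.16, and Mest 0.20 ± 0.29. H13 (0.08 ± 0.09), Rasgrf1 (0.10 ± 0.09), Commd1 (0.00 ± 0.12) and Zrsr1 (0.00 ± 0.11) were close to 0. Commd1 and Zrsr1 overlap on opposite strands, as do Nnat and Blcap.

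Members were also counted by the parental chromosome they are known to be expressed from, again beside 18.5% of all tested genes called, 9.56% higher and 8.96% lower. Of 16 tested paternally expressed members 2 were higher (Dlk1 and Impact) and 1 was lower (Slc38a4), with a median log2 fold change of 0.14. Of 7 tested maternally expressed members 2 were higher (Rian and Asb4, called in 10 and 11 of 22 alternatives), with a median of 0.11. Of 8 tested members imprinted only in some tissues or transcripts 1 was higher (Ddc), with a median of 0.05. Nothing is read from these counts. Within the Dlk1 locus the median of the 4 was 0.32, and among the 27 tested in other clusters it was 0.11. The difference of these medians was 0.21. It lay between 0.05 and 0.72 when single libraries were left out, with the highest values without WT replicate 5 (0.72) and WT replicate 4 (0.56). In each library, the mean log2 CPM of the locus minus that of the other clusters was −1.14, −1.37, 0.49 and 0.28 in KO replicates 1 to 4, against −2.76, −2.28, −2.44, −0.60 and 0.19 in WT replicates 1 to 5. KO was above WT within each run, and both groups were higher in run 3. That mean includes Dlk1. For Meg3, Rian and Mirg alone, the mean log2 CPM was 3.91, 3.42, 6.005 and 5.62 in KO replicates 1 to 4, against 2.67, 3.20, 3.46, 5.50 and 6.62 in WT replicates 1 to 5, and KO and WT overlapped within each run.

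Between WT libraries, the 2 Ogt f/+ and the 3 Ogt f/f samples were compared as a check of the controls. No gene was called (0 of 12501, with 398 at an unadjusted p under 0.05, or 3.18%, edgeR's quasi-likelihood test), and no other tool was run. Of the members, 2 had an unadjusted p under 0.05. Dlk1 was −0.75 ± 0.32 on the log2 scale in f/+ relative to f/f (adjusted p = 1, edgeR's quasi-likelihood test), so that its WT levels of 12.2 and 8.45 CPM in f/+ stood against 13.9, 19.3 and 15.5 CPM in f/f. Zrsr1 was −0.50 ± 0.13 (adjusted p = 1, edgeR's quasi-likelihood test). The f/+ samples were both in run 1, where WT replicate 2 was the only f/f control. The Dlk1 levels of 19.3 and 15.5 CPM were those of WT replicates 4 and 5, in run 3. Zrsr1 was at 98.8 CPM in WT replicate 2, against 68.6 CPM in each f/+ sample. In WT replicates 4 and 5 it was at 73.8 and 66.6 CPM.

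Other imprinted genes were followed on a separate list of 52 symbols, 33 of them tested, of which 5 were higher in KO, 3 were lower and 25 were not called, with a median log2 fold change of 0.12, beside 18.5% of all tested genes called (9.56% higher and 8.96% lower) and a median of 0.02. Cd81, a tetraspanin of the Kcnq1ot1 cluster region, had 152 ± 24.7 CPM in KO and 78.8 ± 12.2 CPM in WT (SD, n = 4 and 5). Its log2 fold change was 0.98 ± 0.10 (SE). Zdbf2 was at 307 ± 10.6 CPM in KO, against 210 ± 19.7 CPM in WT (0.54 ± 0.08). Cobl, next to Grb10 and Ddc, had 40.2 ± 10.2 CPM in KO and 20.8 ± 2.78 CPM in WT (0.92 ± 0.15). Adam23 had 20.3 ± 2.56 CPM in KO and 10.6 ± 1.89 CPM in WT (0.93 ± 0.17).

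Factors that keep or read imprints, together with other chromatin regulators, were on a list of 35 genes, 29 of them tested. Of these 4 were higher, 3 were lower and 22 were not called, beside 18.5% of all tested genes called (9.56% higher and 8.96% lower). Hcfc1, a chromatin cofactor that is itself a substrate of OGT, had 289 ± 45.8 CPM in KO and 124 ± 14.1 CPM in WT. Its log2 fold change was 1.25 ± 0.07 (SE). Dnmt1, the maintenance DNA methyltransferase, had 103 ± 10.9 CPM in KO and 75.5 ± 16.8 CPM in WT (0.51 ± 0.10). Hira, a histone chaperone, was higher (0.51 ± 0.11) and Rif1, a replication timing factor, was lower (−0.35 ± 0.08). The median of the list was 0.02, the same as over all tested genes to 2 decimals.

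Genes of the Notch pathway, to whose ligands the Dlk1 protein is related, were on a list of 33, with 28 tested. Of these 2 were higher, 1 was lower and 25 were not called, beside 18.5% of all tested genes called (9.56% higher and 8.96% lower). Dner, a membrane protein with EGF-like repeats, was higher (20.1 ± 3.87 CPM in KO and 11.3 ± 1.81 CPM in WT, log2 fold change 0.84 ± 0.18). The target gene Heyl was higher as well (0.73 ± 0.21). The protease Adam10 was lower (−0.33 ± 0.10). Heyl stood at 17.4 to 35.9 CPM in KO and 4.89 to 30.4 CPM in WT, with each library of run 3 above those of run 1.

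On a list of 16 genes of the IGF pathway, 14 were tested. Of these 1 was higher and 1 was lower, beside 9.56% of all tested genes higher and 8.96% lower. The receptor Igf1r was lower in KO, at 385, 463, 281 and 281 CPM in KO replicates 1 to 4, against 1100, 794, 905, 626 and 544 CPM in WT replicates 1 to 5. Its log2 fold change was −1.10 ± 0.10 (SE). The RNA-binding protein gene Igf2bp1 was higher, at 2.52 to 8.07 CPM in KO, against 0 counts in the 3 WT libraries of run 1 and 2.26 and 4.73 CPM in WT replicates 4 and 5.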

How the data were processed

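RNA was sequenced from 9 islet samples. Islets were hand-picked after collagenase digestion and cultured overnight, and total RNA libraries were made with a stranded kit for low input, per the labels' protocols. The authors deposited a table of raw read counts (24420 rows) and one of FPKM values (24347 rows). FastQC, Bowtie2 2.2.4.0, Cuffdiff 2.2.1, edgeR and the build mm10 are named per the submitters' processing notes, and no source used here says which tool counted reads or how it treated strand and reads matching several places. Of the counted symbols, 27 had become dates and were left out.

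Counts were tested with the quasi-likelihood method of edgeR 4.0.16 (R 4.3.3), with TMM scaling, the default low-count filter and run and genotype as terms, fitted on 12501 genes. A call is a Benjamini-Hochberg adjusted p under 0.05. Values within runs and the interaction came from a model with 1 mean per run and genotype, and f/+ against f/f from a model of 3 genotype groups and run. CPM values use TMM-scaled library sizes. Means of log2 CPM used a prior count of 2. Alternatives were DESeq2 1.42.0, limma 3.58.1 (voom, and log2 of FPKM plus 0.1 or 1), other scalings, filters and covariates, and leaving libraries out. The fits were tested on simulated data.

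Members and lists were chosen with earlier results of these data known. The KO against WT differences of both are therefore given with no p-value, and Ogt, the check of the labels, is the exception. Members are described in full. From each other list the text names up to 4 called genes with the lowest p, any neighbour of Dlk1 with counts and genes between Begain and Ppp2r5c. Other lists gave, as higher and lower calls of those tested, 1 and 0 of 8 (alpha cell), 0 and 2 of 10 (acinar), 0 and 0 of 6 (duct), 0 and 0 of 8 (endothelial), 1 and 0 of 7 (macrophage), 0 and 0 of 1 (mesothelial), 0 and 0 of 5 (proliferation) and 1 and 0 of 5 (Schwann and neural). Over all tested genes the shares were 9.56% higher and 8.96% lower. Pairs of replicates differed by 3.73 to 36.4 chi-square per degree of freedom, so no library was a duplicate. Sequences and promoter windows are from RefSeq tables on GRCm38.p6, gene coordinates from GENCODE on GRCm38.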

Additional observations from a re-analysis of the deposited data

Results flagged for a closer look

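Among 62 checks of single samples within a group (31 tested members in KO and in WT), 2 samples stood far from the rest by Dixon's test. Chance flags about 1 in 20 groups of like samples. Each group pooled both runs, so that rate does not hold for members that differed between runs, as Meg3 did. Meg3 was at 532 CPM in WT replicate 5, against 12.2 to 142 CPM in the other WT libraries. Zrsr1, a splicing factor gene that lies within Commd1 on the other strand, was at 98.8 CPM in WT replicate 2, against 66.6 to 73.8 CPM in the other WT libraries. WT replicates 2 and 5 also held the highest Rn45s share of their runs (28.6% and 24.3%), and the part of this in either value was not tested.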

How the results depend on the processing

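No member value called with all libraries changed sign under the alternatives run. Peg10, not called within run 1, was called there at −0.59 without KO replicate 1 and at 0.97 without KO replicate 2. Of the member values, Dlk1, Ddc and Slc38a4 were called over both runs in 22 of 22 alternatives, and 3 to 9 members were called in each. The count of called genes over both runs (2315) was 672 without the run term, 1538 with f/f controls alone, 1435 with the acinar markers as a covariate, 1274 and 1300 on log2 FPKM with pseudocounts of 0.1 and 1, 1488 without both WT replicates 2 and 5, and 1595 to 2334 without single libraries. Within run 1 (1294) it was 765 in a separate fit and 649 to 1613 without single libraries. Within run 3 (540) it was 964 and 60 to 127, fits in which a group of 1 sample is assumed to vary like the others. The interaction count (0) was 0 to 6 without single libraries. The difference of medians between the Dlk1 locus and other clusters (0.21) was 0.55 without both WT replicates 2 and 5 and 0.052 to 0.72 without single libraries. The cause of these shifts was not tested. Without a low-count filter Peg3, Meg3 and H19 were also called. Mirg, H19 and the microRNA genes had few counts in run 1, which limits the precision of their values there. No paired analysis was possible because the labels give no replicate numbers that tie KO to WT samples.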
